A study of Homo sapiens with 10 samples.

Results

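The nuclear genes of oxidative phosphorylation were followed through 2 inhibitors of transcription in A549 cells, a human lung adenocarcinoma line. The 95 genes were taken by symbol from the 20163 protein-coding genes outside the mitochondrial chromosome in GENCODE release 44 placed on GRCh37. A gene was a member when its symbol started with NDUFA, NDUFB, NDUFC, NDUFS, NDUFV, UQCR, COX4 to COX8, ATP5 or SDH, and CYC1 was added. NDUFAF assembly factors were left out. The set holds 37 genes of complex I, 4 of complex II and 4 of its assembly, 10 of complex III, 19 of complex IV, 19 of complex V and 2 readthrough genes. The rule for members uses symbols and no measured value.

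Oxidative phosphorylation couples the oxidation of NADH and succinate to ATP synthesis in the inner mitochondrial membrane. Complex I (NADH dehydrogenase) and complex II (succinate dehydrogenase) pass electrons to ubiquinone, complex III passes them to cytochrome c, complex IV (cytochrome c oxidase) reduces oxygen, and complex V (ATP synthase) uses the proton gradient. Except for complex II, each complex also has subunits encoded in mitochondrial DNA. That DNA is transcribed by a separate mitochondrial RNA polymerase and is not part of the gene set. The nuclear genes are transcribed by RNA polymerase II. α-amanitin, a mushroom toxin, binds RNA polymerase II and slows its elongation. DRB, a nucleoside analogue, inhibits the kinase that releases paused RNA polymerase II into elongation.

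The samples were polyadenylated RNA from A549 cells in 5 conditions with 2 libraries each. The conditions were DMSO, α-amanitin at 1 or 2 μg/mL for 24 h, and DRB at 10 or 25 μg/mL, and no source used here gives how long DRB and DMSO were applied. All comparisons with DMSO share the same 2 DMSO libraries. Nothing in the labels says whether the 2 libraries of a condition came from separate cultures, so p-values measure only the spread between libraries, which may be technical. A single line was used, so other lung cells are not represented. Of the epithelial markers, KRT8, KRT18 and KRT7 had split reads in all 10 libraries and KRT19, EPCAM and CDH1 in none. PTPRC, CD3E, PECAM1, CDH5, COL1A2 and DCN, markers of blood, endothelial and fibroblast cells, were at 0 throughout. Only 1 of PECAM1 and CDH5 is among the protein-coding genes of the annotation, so the 0 of the other may not be a measured absence. COL1A1 ranged from 0 to 156 counts per 1000000 split reads (CPM) over the libraries, and CD68 from 0 to 24.4, the highest at 25 μg/mL DRB. The summed CPM of the 3 epithelial markers was 1335 and 1359 in DMSO, 687.8 and 723 with the lower and 957 and 1281 with the higher DRB dose. Within this sum KRT8 rose at the higher dose, with a log2 fold change of 0.60 (adjusted p = 0.023, limma), and KRT18 fell from 508 and 581 to 102 and 225 CPM (-1.77, adjusted p = 0.00515). Of 3 genes known to be high in A549 cells, AKR1C1 and AKR1B10 were at 0 in both libraries at 25 μg/mL DRB, and the sum of all 3, with NQO1, was 1408 to 1647 CPM in DMSO and 2612 to 2695 at that dose. The part of such shifts in the results was not tested.

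The files hold split reads, which span a splice junction, by intron. A gene's level is the sum over its introns, scaled by TMM (a trimmed mean of ratios between libraries) and given as CPM. The libraries held 2899262 to 6498490 split reads. Introns that the authors' filters removed are not listed, so a gene without listed introns is not shown to lack them, and the 2 libraries at 25 μg/mL DRB listed 45508 and 60614 introns against 74736 to 90953 in the other 8. They also stood apart in unspliced reads, which made up 31.1% and 48.8% of reads at intron boundaries against 13.4% to 24.3% elsewhere. For the members alone that share was 4.95% and 6.96% against 2.09% to 3.996%. Of the 355 canonical introns of the members tested, 301 and 334 were listed at 25 μg/mL DRB and 339 to 349 in the other libraries. Values are shares of each library's split reads, so in bulk RNA neither the amount of RNA per cell nor the number of cells is seen. A rise here is a larger share, which can go with an unchanged or lower amount of RNA per cell. In these shares the members took 1.49% and 1.61% of split reads in DMSO, 1.63% and 1.56% at 1 μg/mL α-amanitin, 1.76% and 1.74% at 2 μg/mL. The lower DRB dose gave 1.29% and 1.33%, and the higher one 1.93% and 2.08%.

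Split reads were found for 84 members, and 82 passed the filter on low counts (at least 10 reads in at least 2 libraries and 15 over the fit) and were tested in every comparison. SDHAF2 and the readthrough gene NDUFC2-KCTD14 had reads of their own but were too low to test. The 3 canonical introns of SDHAF2 are shared with an overlapping gene and were left out. The 11 members without reads were COX4I2, COX6A2, COX6B2, COX7A1, COX7B2, COX8C, NDUFA4L2, ATP5MF-PTCD1, ATP5MGL, SDHAF1 and UQCRHL. The last 3 of these have no annotated intron and cannot give split reads. COX4I2, COX6A2, COX6B2, COX7A1, COX7B2 and COX8C are tissue forms of complex IV subunits, used in lung, muscle, heart or testis, and their general counterparts COX4I1, COX6A1, COX6B1, COX7A2, COX7B and COX8A were all measured.

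Levels in DMSO differed widely between members. Set per intron, the only length-free scale here, UQCRH, the hinge protein of complex III, was highest at 203 ± 16.9 CPM per canonical intron (SD, n = 2). COX7C followed at 152 ± 10.9 and ATP5F1B, the catalytic β subunit of ATP synthase, at 149 ± 8.32, which lie within their spreads of each other. ATP5F1E (ε subunit, 124 ± 4.87) and ATP5F1A (α subunit, 123 ± 4.92) also lay within their spreads. NDUFA4, a subunit of complex IV despite its name, stood at 109 ± 1.08. Of the members tested, the lowest were NDUFV3 (1.69 ± 0.982), SDHAF3 (2.45 ± 0.868) and SDHAF4 (3.93 ± 0.784).

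At 25 μg/mL DRB most members took a larger share of split reads than in DMSO, while a minority, among them the core subunits NDUFV2, NDUFS1 and NDUFS3 of complex I, took a smaller one. Of the 82 members tested, 52 rose (63.4%) and 10 fell (12.2%), while 20 did not pass the test (limma voom, adjusted p of 0.05 or less after Benjamini-Hochberg over 9499 genes). Over all genes tested 20.1% rose and 41.0% fell. The median log2 fold change was 0.90 for the members and -1.01 for all genes, and 73 members lay above the all-gene median. All 62 called members had both DRB libraries on the same side of both DMSO libraries. A call makes such separation likely, so it is no further support, and its share over all genes was not counted. The median of all genes moves with the scaling and with the introns counted. With the total of split reads in place of TMM it was -1.49, and the members' median 0.41, with 39 higher and 17 lower. That is 47.6% and 20.7% of members, against 14.3% and 51.6% of all genes. Over introns listed in all 6 libraries only 4732 genes and 79 members were tested. In that fit the median of all genes was -0.02 and the members' median 0.70. There 49 members were higher and 14 lower (62.0% and 17.7%), against 30.5% and 31.3% of all genes. With all listed introns the members' median was thus 1.91 above that of all genes. No called member changed sign under any of the 12 alternatives tried, and 38 of the rises and 3 of the falls, NDUFS4 and SDHA among them, passed in all of them.

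Counted by complex, the rises were spread over all 5. In complex IV 11 of 12 members rose and 0 fell, with a median log2 fold change of 1.42. In complex V 12 of 18 rose and 0 fell, with a median of 1.01. In complex III 6 of 9 rose and 2 fell (median 0.88). In complex I 22 of 37 rose and 6 fell (median 0.85), and in complex II 1 of 4 rose and 1 fell (median -0.32). The differences between complexes were not tested.

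**Figure D1:**
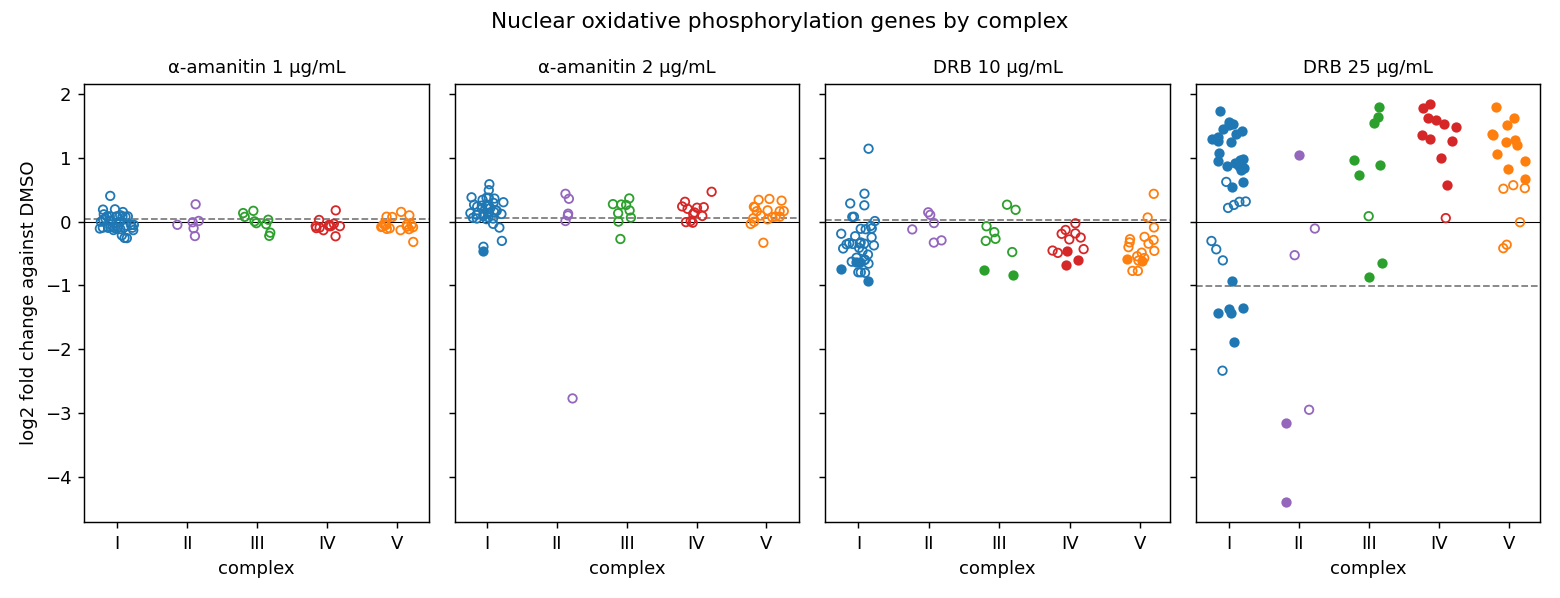
Log2 fold change against DMSO of the 82 members tested, by complex (assembly genes of complex II are shown with it), in one panel for each treatment. Filled points passed an adjusted p of 0.05, open points did not, and the dashed line is the median of all genes tested. At 25 μg/mL DRB all 12 complex IV members and all 18 complex V members lie above the dashed line at -1.01, and the lowest point is SDHAF3, listed at 0 there, whose fitted fold change sets no bound.

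The largest rises were in small subunits. COX6A1, a small subunit of complex IV (chromosome 12, 120875893 to 120878540), had 185 and 215 CPM in DMSO and 711 and 755 at 25 μg/mL DRB (log2 fold change ± SE of 1.85 ± 0.11, adjusted p = 0.000545). ATP5F1E, the ε subunit of the ATP synthase stalk (chromosome 20, 57600530 to 57607400), went from 242 and 255 to 838 and 916 (1.80 ± 0.10, adjusted p = 0.000545). Both genes were far above the spread of the other 8 libraries, in which COX6A1 ranged from 176 to 264. UQCRQ, a small subunit of complex III (chromosome 5, 132202322 to 132204539), had 46.7 and 53.4 in DMSO and 186 and 171 under 25 μg/mL DRB (1.79 ± 0.17, adjusted p = 0.000692). COX8A, a small membrane subunit of complex IV (chromosome 11, 63742092 to 63744015), had 63.9 and 63.2 and 203 and 236 (1.78 ± 0.16, adjusted p = 0.00065). In each of these genes both treated libraries stood above all 8 others.

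Complex IV showed the rise across its general subunits. COX4I1, the regulatory subunit 4 that binds ATP (chromosome 16, 85832239 to 85840674), had 278 and 302 in DMSO and 774 and 926 (1.53 ± 0.12, adjusted p = 0.000556). NDUFA4 (chromosome 7, 10971570 to 10979780) went from 326 and 329 to 1043 and 984 (1.60 ± 0.09, adjusted p = 0.000545). COX7A2 rose by 1.36 ± 0.14 on the log2 scale, with 206 and 222 in DMSO and 577 and 543 under DRB. Its relative COX7A2L, the factor that helps to join complexes III and IV into supercomplexes, was the only complex IV member that did not pass: it had 75.6 and 77.5 in DMSO and 67.3 and 90.0 under DRB (0.06 ± 0.20, adjusted p = 0.82). The remaining rises in complex IV were COX5A (0.57), COX5B (1.00), COX6B1 (1.62), COX6C (1.49), COX7B (1.26) and COX7C (1.29) in log2 fold change.

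In complex V the catalytic head and the rotor were not uniform. ATP5F1B had 1292 and 1395 CPM in DMSO and 2167 and 2630 at 25 μg/mL DRB (0.82 ± 0.11, adjusted p = 0.00208). Its partner in the catalytic head, ATP5F1A, had 1313 and 1389 and 782 and 1295 (-0.42 ± 0.22, adjusted p = 0.145), so the DRB libraries lay below both DMSO libraries without passing the test. ATP5F1C, the γ subunit that turns inside the head, had 418 and 448 and 263 and 423, which overlapped (-0.36 ± 0.21, adjusted p = 0.188). The 3 genes for subunit c, which make the same mature protein of the rotor ring, were unequal: ATP5MC1 rose by 1.35 ± 0.24 (adjusted p = 0.00493) and ATP5MC2 by 0.66 ± 0.18 (0.0252), while ATP5MC3 had 0.52 ± 0.26 (0.132). Their levels under DRB were 434 and 656 for ATP5MC1, 415 and 596 for ATP5MC2 and 266 and 453 for ATP5MC3. ATP5IF1, the inhibitor of the reverse reaction, had 74.7 and 60.5 in DMSO and 79.4 and 111 under DRB and did not pass (0.52 ± 0.22, adjusted p = 0.0883). The other members of complex V that rose were ATP5F1D, ATP5PD, ATP5PF, ATP5ME, ATP5MF, ATP5MG, ATP5MJ and ATP5MK, by 0.96 to 1.63 on the log2 scale.

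In complex III the catalytic and small subunits fell into different groups. Its 2 core proteins were called in opposite directions: UQCRC1 rose from 345 and 326 to 512 and 619 (0.74 ± 0.12, adjusted p = 0.00374) and UQCRC2 fell from 238 and 241 to 134 and 173 (-0.65 ± 0.14, adjusted p = 0.0109). CYC1, the cytochrome c1 subunit that hands electrons to cytochrome c, fell from 182 and 209.6 to 75.8 and 138 (-0.86 ± 0.26, adjusted p = 0.0309). UQCRFS1, the Rieske iron-sulfur protein, had 76.1 and 99.8 in DMSO and 77.6 and 107 under DRB, which overlapped (0.08 ± 0.23, adjusted p = 0.75). The 5 small subunits UQCRB, UQCR10, UQCR11, UQCRH and UQCRQ all rose, by 0.88 to 1.79. Over introns listed in all 6 libraries CYC1 had a log2 fold change of -1.15.

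Core subunits of complex I were called in both directions, and their median log2 fold change was -0.94 against -1.01 for all genes. NDUFV1, which binds FMN and NADH, rose from 163 and 161 to 362 and 447 (1.30 ± 0.14, adjusted p = 0.000916), and NDUFS7 and NDUFS8, iron-sulfur subunits next to the quinone site, rose by 0.85 ± 0.24 and 0.62 ± 0.19 on the log2 scale (adjusted p = 0.0246 and 0.0362). NDUFV2, the iron-sulfur partner of NDUFV1 (chromosome 18, 9102628 to 9134343), fell from 254 and 284 in DMSO to 57.0 and 86.0 at 25 μg/mL DRB (-1.88 ± 0.21, adjusted p = 0.00101). NDUFS1, the largest subunit, fell from 161 and 148 to 33.6 and 84.3 (-1.36 ± 0.34, adjusted p = 0.018), and NDUFS3 from 104 and 118 to 49.8 and 64.5 (-0.94 ± 0.23, adjusted p = 0.0159). NDUFV1 and NDUFV2, which sit side by side in the NADH-binding tip, thus lay on opposite sides of DMSO in both libraries.

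Of the 30 accessory subunits of complex I tested, 19 rose and 2 fell. NDUFB2 had 124 and 144 in DMSO and 442 and 456 under 25 μg/mL DRB (1.73 ± 0.12, adjusted p = 0.000545), and NDUFS6, a zinc-binding subunit of the peripheral arm, rose by 1.56 ± 0.24. The 2 that fell were NDUFS4, whose loss causes Leigh syndrome, with 66.9 and 59.1 in DMSO and 22.9 and 23.8 under DRB (-1.44 ± 0.28, adjusted p = 0.00681), and NDUFA8, with 20.9 and 23.7 and 7.63 and 8.89 (-1.44 ± 0.36, adjusted p = 0.0166). The rises ran from 0.54 for NDUFB4 to 1.73 for NDUFB2, and the others were NDUFA1, NDUFA2, NDUFA3, NDUFA7, NDUFA10, NDUFA11, NDUFA13, NDUFB1, NDUFB3, NDUFB6, NDUFB7, NDUFB8, NDUFB9, NDUFB11, NDUFC2 and NDUFS5. NDUFA9, next to the quinone site, had 199.5 and 213 and 119 and 186 and did not pass (-0.43 ± 0.21, adjusted p = 0.124). NDUFV3 had no listed intron in 1 of the 2 DRB libraries and 9.75 CPM in the other, against 6.9 and 11.2 in DMSO, and did not pass.

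The 4 subunits of complex II, the only complex encoded wholly in the nucleus, included 1 rise and 1 fall. SDHC, a membrane anchor, rose from 80.2 and 84.0 to 150.3 and 190.1 (1.04 ± 0.17, adjusted p = 0.00405). SDHB, the iron-sulfur subunit, had 142 and 149 and 114 and 156, which overlapped (-0.11 ± 0.18, adjusted p = 0.61), and SDHD, the other anchor, had 26.0 and 27.8 and 16.6 and 20.9 (-0.53 ± 0.34, adjusted p = 0.223). SDHA, the flavoprotein, fell from 277 and 286 to 11.7 and 61.1 (-3.16 ± 0.56, adjusted p = 0.00509). Only 2 and 12 of the 14 canonical introns of SDHA were listed in the 2 DRB libraries, and over introns listed everywhere its log2 fold change was -2.02. SDHA has near-identical pseudogene copies with introns, so its reads are uncertain. SDHAF3, an assembly factor with 12 and 23 split reads in DMSO, was listed at 0 in both DRB libraries and counts among the 10 that fell. SDHAF4, the other assembly factor tested, was listed at 0 in 1 DRB library and had 12 split reads in the other, and did not pass. The members not yet named that did not pass at this dose were NDUFA5 (-0.61), NDUFAB1 (-0.30), NDUFB5, NDUFA12, NDUFC1, NDUFB10 and NDUFA6 of complex I and ATP5PB and ATP5PO of complex V, the last 7 between -0.01 and 0.62 in log2 fold change.

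Rises were most frequent among members with short coding sequence, a feature the rule for members does not use. The members are short genes: the median coding length of the 81 with a canonical transcript was 411 nt against 1374 nt for all genes tested, the median gene span 9242 bp against 28364 bp, and the median number of introns 3 against 9. In cells given 25 μg/mL DRB, 21 of the 22 members with up to 300 nt of coding sequence rose and 0 fell (median log2 fold change 1.43). From 300 to 500 nt 19 of 29 rose and 1 fell (0.94), from 500 to 1000 nt 7 of 19 rose and 5 fell (0.21), and above 1000 nt 4 of 11 rose and 4 fell (-0.43). Genes of all kinds in the same classes had medians of 0.49, 0.12, -0.69 and -1.50. Over the 81 members the fold change and coding length had a Spearman correlation of -0.65, over all 9016 genes with a coding length -0.16. With introns listed everywhere it was -0.68 over 78 members. It was -0.46 with transcript length and -0.49 with gene span. At 10 μg/mL DRB the correlation with coding length was -0.03, and at 2 μg/mL α-amanitin -0.18. The fold change at 25 μg/mL DRB and the level per intron in DMSO had a correlation of 0.54 over the members. All these values are descriptions over genes of the same libraries, and the parts of length and of level in the result were not tested.

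**Figure D2:**
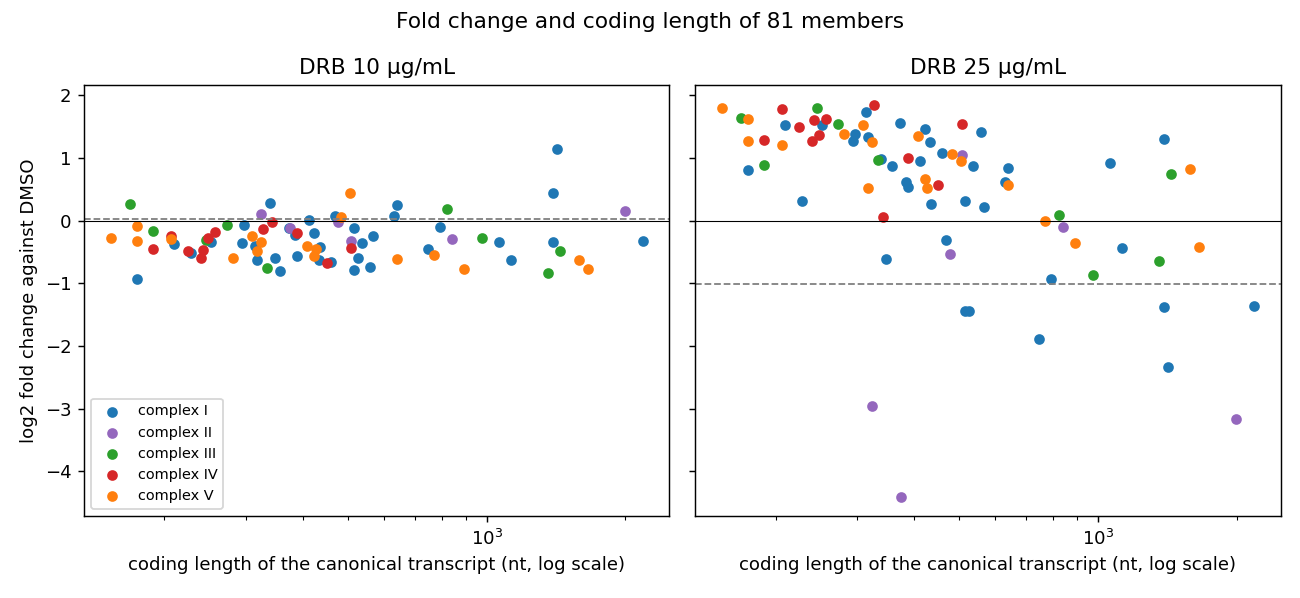
Log2 fold change against DMSO at 10 (left) and 25 μg/mL DRB (right) against the coding length of the canonical transcript on a log axis, for 81 members coloured by complex; the dashed line is the median of all genes tested. At 25 μg/mL the members fall with length, from a median of 1.43 up to 300 nt to -0.43 above 1000 nt, and at 10 μg/mL no such slope is seen.

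At 10 μg/mL DRB every member that passed the test under TMM scaling was lower than in DMSO. Of 82 members 0 rose and 11 fell (13.4%), against 8.23% of all genes higher and 6.51% lower, and the median was -0.34 against 0.03 for all genes. With the total of split reads in place of TMM the medians were -0.20 and 0.17, with 1 member higher and 13 lower, against 12.3% and 6.14% of all genes. The 11 were NDUFB1, NDUFB8, NDUFS5 and NDUFA13 of complex I, UQCRB and UQCRC2 of complex III, COX5A, COX7B and NDUFA4 of complex IV, and ATP5F1B and ATP5MF of complex V. NDUFB1, an accessory subunit, had 106 and 105 CPM in DMSO and 61.9 and 50.4 at 10 μg/mL (-0.93 ± 0.17, adjusted p = 0.0241). UQCRC2 had 132 and 134 (-0.84 ± 0.13, adjusted p = 0.0146), below its level in DMSO by more than the spread of either pair. ATP5F1B had 839 and 894 (-0.62 ± 0.12, adjusted p = 0.0249), and NDUFA4 239 and 233 (-0.47 ± 0.09, adjusted p = 0.0294). NDUFC2 and NDUFB6 had larger changes than most of the 11, -0.80 ± 0.31 and -0.80 ± 0.23, and did not pass (adjusted p = 0.142 and 0.0798). At the upper end stood NDUFV3 (1.14 ± 1.02), NDUFV1 (0.44 ± 0.14), ATP5F1D (0.44 ± 0.23) and NDUFA7 (0.29 ± 0.28), none of which passed. Without any 1 of the 4 libraries of DRB at 10 μg/mL or DMSO, no member and no other gene was called. Each such fit leaves a single library in a group. The members' median stayed between -0.40 and -0.28 in these fits.

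Between the 2 DRB doses the difference was also called for most members. At 25 against 10 μg/mL, a comparison that does not use the DMSO libraries except for the shared spread, 54 of 82 members were higher (65.9%) and 8 lower (9.76%), against 19.5% and 43.7% of all genes. The medians were 1.22 for the members and -1.22 for all genes. With the total of split reads in place of TMM 47 members were higher and 17 lower, against 12.7% and 58.1% of all genes, and the medians were 0.60 and -1.84. Over introns listed in all 6 libraries, with 4732 genes and 79 members tested, the medians were 0.955 and -0.10. There 54 members were higher and 10 lower (68.4% and 12.7%), against 30.5% and 33.9% of all genes. The comparisons of both doses with DMSO share its 2 libraries. NDUFB8, for example, had 124 and 153 CPM in DMSO. The lower DRB dose gave 84.3 and 80.8 and the higher 350.4 and 399.7, a difference of 2.16 on the log2 scale between the doses. The 3 levels do not overlap. NDUFV2 had 196 and 194 at 10 μg/mL and at 25 μg/mL decreased by 1.42 (adjusted p = 0.00256).

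Under α-amanitin few members passed the test. At 1 μg/mL 0 of 82 were called, as were 0.0% of all 9644 genes tested. Of the members 3 had an unadjusted p under 0.05 (limma), against 971 of all genes. The members' median log2 fold change was -0.05 (0.04 for all genes). At 2 μg/mL 0 rose and 1 fell, against 2.46% of all genes higher and 3.91% lower. That call is lost without any 1 of the 4 libraries of DMSO and 2 μg/mL, in fits that called 0.0% to 4.27% of all genes. The members' median was 0.15 against 0.05 for all genes, and 63 of 82 lay above the all-gene median. The members' median was 0.096 without the first DMSO library and 0.23 without the second. Among members with a mean of at least 50 split reads that did not pass, the lowest were NDUFS4 (-0.39 ± 0.14), ATP5MC2 (-0.33 ± 0.10) and NDUFV2 (-0.30 ± 0.12), and the highest NDUFV3 (0.59 ± 0.40), NDUFV1 (0.49 ± 0.13), COX8A (0.47 ± 0.16) and SDHA (0.44 ± 0.11). None of these passed, with adjusted p from 0.059 for SDHA to 0.362 for NDUFV3. SDHAF3 had no listed intron in 1 of the 2 libraries at the higher dose. Toward the ends of the range at 1 μg/mL were ATP5MC2 (-0.32), NDUFS4 (-0.26) and COX7C (-0.23) below and NDUFV3 (0.40), SDHA (0.27), NDUFA2 (0.19) and NDUFS6 (0.19) above. Between 2 and 1 μg/mL 0 members were called, as were 0.0% of all genes. Counting only introns listed in all 6 libraries, 10 of 81 members (12.3%) were called at the higher dose, 9 higher and 1 lower, against 17.1% of all genes.

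Inclusion of exons was then compared. Ψ, the share of transcripts that hold an exon, was computed as inclusion split reads over inclusion plus 2 times exclusion split reads. Exons of the members that passed the read minimum numbered 125 in 39 genes, many of them overlapping forms of 1 exon that share reads. At 25 μg/mL DRB 50 of the 125 (40.0%) were less and 6 (4.80%) more included than in DMSO, against 44.3% and 7.77% of all 10805 exons tested, in 20 genes. The members' shares were close to or below those of all exons. Keeping only the 53 exons with both edges at listed splice sites, 21 (39.6%) were less and 5 (9.43%) more included, against 47.1% and 6.97% of all such exons. At 1 and 2 μg/mL α-amanitin and 10 μg/mL DRB 0 member exons were called, against 0.0%, 0.0683% and 0.0278% of all exons, with 8, 22 and 35 of the 125 at an unadjusted p under 0.05. Without 1 library of DMSO or DRB the 56 calls at 25 μg/mL fell to 0 or 11. The 11 (8.80%) remained without the first DMSO library, in a fit that called 11.7% of all exons, and the other fits called 0 exons of any gene.

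The largest losses among exons with both edges spliced were in coding exons of NDUFV2, NDUFAB1 and NDUFS3 without a listed exclusion read in either DMSO library. Their sequences and that of a coding exon of ATP5F1C are shown because these are the exons that the reads under DRB skip, with the exon in capitals and 20 intron bases on each side in lower case, 5′ to 3′, from GRCh37.
NDUFV2 169-nt exon, chr18:9122491-9122699, plus strand: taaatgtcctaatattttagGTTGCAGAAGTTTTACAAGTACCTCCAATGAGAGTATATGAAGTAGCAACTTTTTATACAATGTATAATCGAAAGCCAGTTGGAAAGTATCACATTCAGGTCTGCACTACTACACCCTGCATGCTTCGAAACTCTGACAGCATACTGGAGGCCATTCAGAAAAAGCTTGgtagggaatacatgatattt
NDUFV2 110-nt exon, chr18:9124852-9125001, plus strand: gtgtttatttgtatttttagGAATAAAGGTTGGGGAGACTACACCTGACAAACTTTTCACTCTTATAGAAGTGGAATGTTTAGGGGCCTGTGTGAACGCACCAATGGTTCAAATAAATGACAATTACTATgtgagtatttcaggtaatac
NDUFV2 77-nt exon, chr18:9126809-9126925, plus strand: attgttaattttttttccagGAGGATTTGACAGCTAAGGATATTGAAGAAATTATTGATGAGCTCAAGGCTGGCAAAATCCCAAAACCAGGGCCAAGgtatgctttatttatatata
NDUFAB1 100-nt exon, chr16:23593577-23593716, minus strand: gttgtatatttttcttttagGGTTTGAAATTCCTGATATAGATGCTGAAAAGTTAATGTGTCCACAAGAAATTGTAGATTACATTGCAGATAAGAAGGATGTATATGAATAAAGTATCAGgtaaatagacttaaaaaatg
NDUFS3 120-nt exon, chr11:47603881-47604040, plus strand: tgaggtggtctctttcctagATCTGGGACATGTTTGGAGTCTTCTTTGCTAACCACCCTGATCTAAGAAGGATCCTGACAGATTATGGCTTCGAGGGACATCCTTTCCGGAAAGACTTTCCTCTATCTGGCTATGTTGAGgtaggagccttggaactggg
ATP5F1C 144-nt exon, chr10:7841715-7841898, plus strand: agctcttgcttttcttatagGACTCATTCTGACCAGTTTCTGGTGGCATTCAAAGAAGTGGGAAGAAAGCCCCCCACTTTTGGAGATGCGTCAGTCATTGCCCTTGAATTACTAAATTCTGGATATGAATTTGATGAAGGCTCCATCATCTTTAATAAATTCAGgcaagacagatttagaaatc
All 6 are preceded by AG, and 5 are followed by GT. The 144-nt exon of ATP5F1C is followed by GC. The exons of NDUFS3 and ATP5F1C are multiples of 3 nt long, and those of NDUFV2 and NDUFAB1 are not.

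The 3 exons of NDUFV2 follow each other in the gene. The 169-nt exon had a Ψ of 1 and 1 in DMSO, 0.961 and 1 with the lower DRB dose and 0.625 and 0.511 with the higher (adjusted p = 0.00838, quasi-binomial test). These rest on 285 and 296 inclusion and 0 and 0 listed exclusion reads in DMSO. At 25 μg/mL there were 20 and 48 inclusion and 6 and 23 exclusion reads. As no exclusion count above 0 was under 3, a count of 0 does not show that no read skipped the exon. The 110-nt exon stood at 0.727 and 0.664 and the 77-nt exon at 0.608 and 0.728, against 1 in both DMSO libraries. A longer 123-nt form of the 110-nt exon, with the same start, had 0.478 and 0.444, and shares its exclusion reads. At 2 μg/mL α-amanitin the 169-nt and 110-nt exons had 0.95 and 0.958 and 0.968 and 0.973, which did not pass. NDUFV2 fell in split reads as well as in exon inclusion. A transcript that skips an exon holds fewer junctions, so skipping and the sum over introns are not independent.

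NDUFAB1 encodes the mitochondrial acyl carrier protein, which is also a subunit of complex I. Its 100-nt exon had a Ψ of 1 and 1 in DMSO and 0.458 and 0.711 at 25 μg/mL DRB (adjusted p = 0.0213). The 120-nt exon of NDUFS3 went from 1 and 1 to 0.667 and 0.818 (0.00875). ATP5F1C had losses in 2 exons. Its 144-nt exon went from 0.954 and 0.956 to 0.748 and 0.85 (0.0359). Its 37-nt exon at chromosome 10, 7848937 to 7848973, which muscle and heart skip, went from 0.976 and 1 to 0.871 and 0.907 (0.0365) and stood at 1 and 0.971 at 10 μg/mL. A 196-nt noncoding exon of ATP5MK, a small subunit of ATP synthase, at chromosome 10, 105153956 to 105154151, moved the other way, from 0 and 0 in DMSO to 0.22 and 0.168 at 25 μg/mL (0.00838). The levels at 10 μg/mL, 0.104 and 0.038, lay between those of DMSO and 25 μg/mL.

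**Figure D3:**
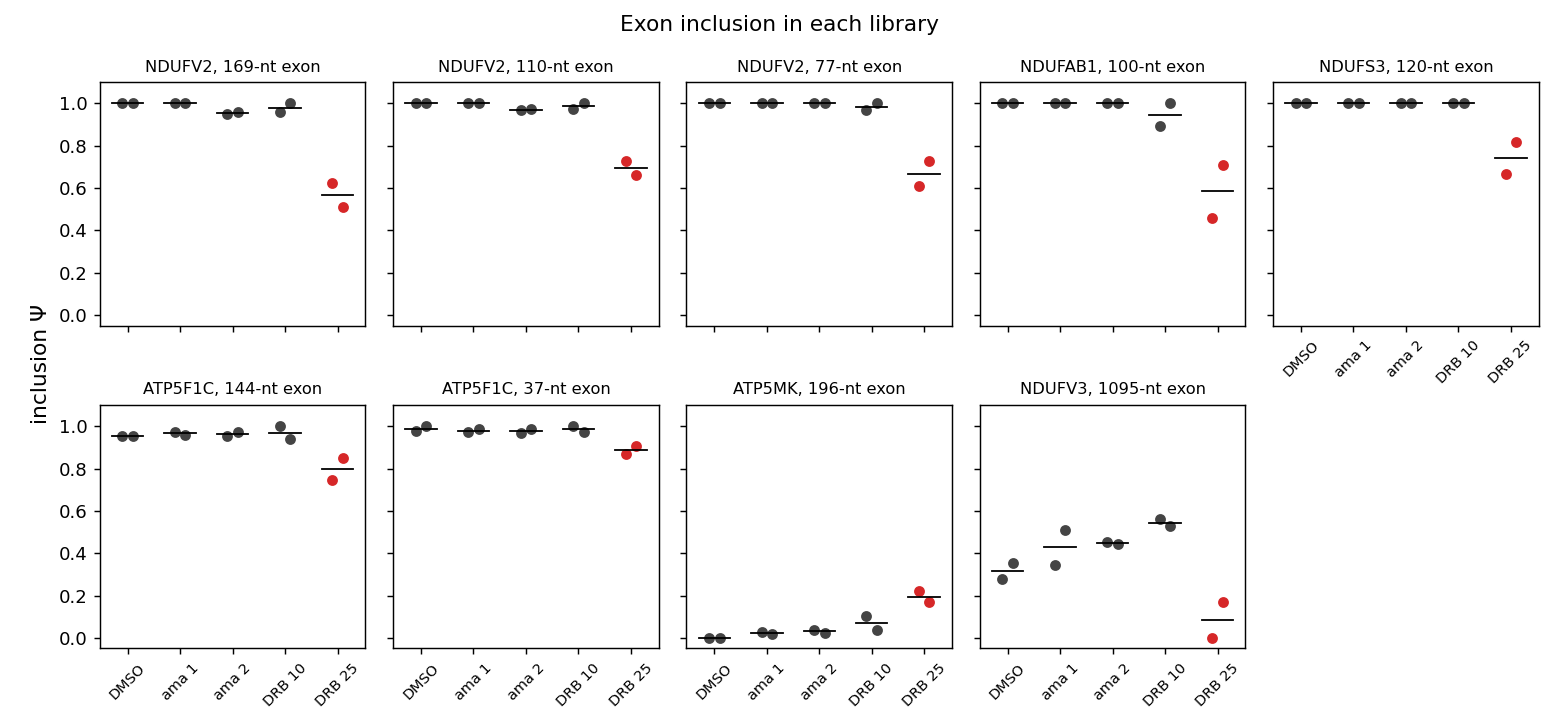
Inclusion Ψ (0 to 1) of 9 exons in each of the 10 libraries, points for libraries and bars for the mean of 2, with 25 μg/mL DRB in red (ama, α-amanitin; numbers are μg/mL). In 8 of the panels the 2 red points lie below all other points, by little in the 37-nt exon of ATP5F1C, and in ATP5MK they lie above them.

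Other genes with a called exon at 25 μg/mL DRB included UQCRH, SDHC, COX5A, COX7C, NDUFA3, COX7B, ATP5PD, ATP5MC1, ATP5MC2, COX4I1, COX7A2, UQCR11, SDHAF2 and NDUFV3. For ATP5MC1, ATP5MC2, SDHAF2 and NDUFV3 the called exons had only 1 edge at a listed splice site. In UQCRH the 43-nt form of its spliced exon went from 0.953 and 0.946 to 0.781 and 0.797, and stood at 0.743 and 0.854 at 10 μg/mL, which did not pass there (adjusted p = 0.116). The exon of SDHAF2, with no listed exclusion read in either DMSO library and a Ψ of 0.25 and 0.212 at 25 μg/mL, rests on 6 and 7 inclusion reads there. The 1095-nt coding exon of NDUFV3, which makes the long form of this complex I subunit, had 0.277 and 0.355 in DMSO, 0.343 and 0.512 with the lower and 0.452 and 0.442 with the higher α-amanitin dose, 0.561 and 0.527 with the lower and 0 and 0.171 with the higher DRB dose, and passed in none of the 4 comparisons (lowest adjusted p = 0.0978). Its higher points at 10 μg/mL DRB and 2 μg/mL α-amanitin did not overlap DMSO. At 2 μg/mL α-amanitin the largest changes, none called, were in ATP5PF, NDUFB5, NDUFV3, NDUFA12 and SDHA, with adjusted p of 0.125 for SDHA and more for the others. In NDUFB5 the 67-nt exon had 0.873 and 0.882 in DMSO and 0.736 and 0.755 at 10 μg/mL DRB (0.244).

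Unspliced reads over the introns of members gave no calls. Tests were possible for 104 introns of 48 genes under α-amanitin and 93 introns of 48 genes under DRB, and 0 passed in any of the 4 comparisons (quasi-binomial test), against 0.0% of all introns at both α-amanitin doses and 10 μg/mL DRB and 10.4% at 25 μg/mL DRB. With an unadjusted p under 0.05 there were 7, 7, 19 and 20 member introns. The test of log odds by limma called 5 at 25 μg/mL DRB (5.38%), against 11.5% of all introns. Members were well spliced: the median unspliced share over the 93 introns was 0.70% in DMSO and 0.75% at 25 μg/mL DRB, against 1.42% and 2.16% for all introns. The largest change at 25 μg/mL was in ATP5F1D, the δ subunit, whose intron between chromosome 19 positions 1244439 and 1244736 was 49.2% and 51.2% unspliced in DMSO and 30% and 38.6% under DRB (adjusted p = 0.151). In NDUFV1 the intron from 67374547 to 67375867 on chromosome 11 was 14.9% and 10.6% unspliced in DMSO and 5.46% and 3.92% under DRB (0.0593). An intron of NDUFS5, from 39492070 on chromosome 1, went the other way, with 17.5% and 18.9% and 28% and 28.8% (0.29), and had 29.1% and 32.5% at 2 μg/mL α-amanitin, the largest change there. After these, the largest changes at 25 μg/mL DRB were in NDUFB10 and UQCRH, at -5.53 and -5.08 percentage points. With α-amanitin at 2 μg/mL they were in UQCRH, which decreased by 6.78 percentage points, and in NDUFA12, ATP5MC1 and ATP5MC3, with 5.00, 4.95 and 3.37 more. The last 3 rest on few reads. Unspliced reads in DMSO and at that dose were 0 and 3 and 4 and 3 for ATP5MC1, and 0 and 3 and 6 and 0 for ATP5MC3. The NDUFA12 intron had 18 and 6 split reads in DMSO and 7 and 5 at that dose. Its unspliced share was already 87.7% and 96.6% in DMSO. For a junction with few split reads this share need not mean a retained intron. In ATP5MC1 the intron from 46971811 to 46972518 on chromosome 17 was 1.04% and 1.73% unspliced in DMSO. The one from 46971811 to 46972545, with 6 and 17 split reads, was 96.5% and 92.2% unspliced. Which transcripts gave these reads was not tested.

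The promoters were searched for the motifs of the factors best known for this gene set. NRF1 and the ETS factor GABP bind many promoters of nuclear respiratory genes, and YY1 binds several. In the window from 250 bases before to 50 after the start of the canonical transcript on GRCh37, on both strands, the NRF1 letters GCGCATGC were in 14 of 94 members (14.9%) and in 4.27% of all 19881 promoters. The ETS letters CCGGAAG were in 26 members (27.7%, all 14.1%) and the YY1 letters AAGATGGCG in 11 (11.7%, all 2.85%). CCAAT was in 29 (30.9%, all 36.0%) and GGGCGG in 59 (62.8%, all 61.4%). Among the members that rose at 25 μg/mL DRB and have a canonical transcript, 18 of 51 held the ETS letters, 7 the NRF1 letters and 5 the YY1 letters. Among the 10 that fell the counts were 3, 1 and 3, and among the 20 tested and not called 4, 5 and 3. Whether the motifs go with the changes was not tested. As an example, the 250 bases before the start are shown for COX6A1, the member with the largest rise, with NRF1 and ETS matches in capitals.
COX6A1, chr12:120875666-120875915, plus strand: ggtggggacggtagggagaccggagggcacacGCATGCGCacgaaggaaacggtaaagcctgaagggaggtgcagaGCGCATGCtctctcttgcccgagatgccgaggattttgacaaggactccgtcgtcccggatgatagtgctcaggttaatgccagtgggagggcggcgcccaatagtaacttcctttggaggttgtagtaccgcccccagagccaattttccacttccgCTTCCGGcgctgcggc
These bases hold 2 NRF1 matches and 1 ETS match. The 250 bases before the start of NDUFV2, which fell, hold 0 matches to the NRF1, ETS or YY1 letters. COX6A1 and NDUFV2 do not stand for all members that rose or fell. In the window from 250 bases before to 50 after the start, NDUFS1 and NDUFS3, which fell, hold the ETS letters. NDUFA8, which also fell, holds the NRF1 letters. ATP5F1E, NDUFA4 and NDUFB2, which rose, hold 0 matches to the NRF1, ETS or YY1 letters there.

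Genes of the regulators themselves were measured too. NRF1 had 11.9 and 12.5 CPM in DMSO, 5.02 and 5.36 with the lower DRB dose and was listed at 0 in both libraries at 25 μg/mL. It also stood at 3.9 and 6.16 at 2 μg/mL α-amanitin, below DMSO without passing (adjusted p = 0.137). GABPA had 13.1 and 17.4 in DMSO and 17.5 and 20.6 at 25 μg/mL DRB (adjusted p = 0.495). TFAM, which packages mitochondrial DNA, rose from 82.5 and 94.7 to 159 and 134 (adjusted p = 0.0129), and ESRRA fell from 23.0 and 27.4 to 5.38 and 10.3 (0.0151). PPARGC1A, a coactivator, was below the minimum for a test.

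Lists of neighbouring genes were counted in the same way. At 25 μg/mL DRB, of 54 assembly factors tested 7 rose and 20 fell (median log2 fold change -0.69), of 76 mitochondrial ribosomal proteins 4 rose and 41 fell (-1.14), and of 18 genes of the tricarboxylic acid cycle 5 rose and 8 fell (-0.59). Of 16 glycolytic genes 12 rose and 2 fell (1.07), and of 83 cytosolic ribosomal proteins 76 rose and 2 fell (1.28). Of 15 regulators 6 rose and 6 fell (-0.26). Of all genes 20.1% rose and 41.0% fell, with a median of -1.01. At 10 μg/mL DRB 0 cytosolic ribosomal protein genes rose and 9 fell (median -0.29), 1 glycolytic gene rose and 7 fell (-0.16), 0 mitochondrial ribosomal proteins rose and 3 fell (-0.02), and 5 assembly factors rose and 3 fell (-0.04). The tricarboxylic acid cycle had 1 rise and 2 falls there (-0.25) and the regulators 2 rises and 0 falls (-0.10). Of all genes 8.23% were higher and 6.51% lower at that dose, with a median of 0.03. With 2 μg/mL α-amanitin 1 of 54 assembly factors and 1 of 18 genes of the tricarboxylic acid cycle rose. There 3 of 76 mitochondrial ribosomal proteins and 2 of 16 glycolytic genes fell. None of the 83 cytosolic ribosomal proteins or 14 regulators was called. Of all genes 2.46% were higher and 3.91% lower. At 1 μg/mL 0 genes of these lists were called, as were 0.0% of all genes. At the ends of the lists at 25 μg/mL DRB, NDUFAF3 had the highest log2 fold change of the assembly factors (1.35), MRPL33 of the mitochondrial ribosome (1.77), IDH3G of the tricarboxylic acid cycle (1.51) and RPLP2 of the cytosolic ribosome (2.25). LDHA, which turns pyruvate into lactate, was lowest among the glycolytic genes at -2.78 ± 0.17 (adjusted p = 0.000545), and OGDH was highest of the tricarboxylic acid cycle at 2 μg/mL α-amanitin at 0.80 ± 0.11 (0.0211). The lowest of the lists at 25 μg/mL DRB, FOXRED1 of the assembly factors, MRPL39, DLAT, NRF1 and RPL39L, were listed at 0 in both libraries, and had 39.1 and 42.3, 69.9 and 89.2, 80.2 and 86.3, 11.9 and 12.5 and 9.2 and 8.79 CPM in DMSO. HK2 and ESRRB, the highest of their lists, were listed at 0 in DMSO and had 6.28 and 3.15 and 6.28 and 4.87 under DRB. At 2 μg/mL α-amanitin LDHA was lowest of the glycolytic genes too (-0.54 ± 0.07, adjusted p = 0.0211). COA4 (-0.76), RPL22L1 (-1.18), MRPS28 (-1.27) and PC (-1.53) were lowest and RPL39L (0.41), TFAM (0.44) and MRPL36 (2.47) highest of their lists there, none of them called. The differences between the lists were not tested.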

How the data were processed

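Polyadenylated RNA from A549 cells was sequenced by the study as 75-bp directional reads, with 2 libraries for each of 5 conditions. The authors aligned reads to GRCh37 with STAR (2.7.3a in the submitters' processing notes) and ran the IPSA pipeline. The paper states that split reads were filtered by the spread of their offsets, annotation status and GT/AG sites. The deposited introns are not all GT/AG, as the intron after the 144-nt exon of ATP5F1C starts with GC and is listed. Each deposited table lists introns with split and unspliced read counts and exons with inclusion and exclusion read counts, and a score column that holds Ψ times 1000 and was not used. The lowest number of split reads listed was 3 in each library, and an unlisted intron was counted as 0. For exons the lowest inclusion or exclusion count above 0 was also 3 in each library. Exon rows can count junctions that have no intron row. The chi-squared statistic per degree of freedom between paired libraries was 7.03 to 17.1, so no pair was the same library sequenced again. It cannot tell separate cultures from separate preparations of the same RNA, as both can add spread between libraries.

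Of 126394 introns, 87.1% matched GENCODE 44 exactly. Split reads were summed per gene over introns of that gene alone, and a readthrough gene kept only introns that no other gene has. Genes with at least 10 split reads in 2 libraries and 15 over the fit were tested by limma 3.58.1 (voom, empirical Bayes, R 4.3.3) with TMM scaling, in 1 fit of 6 libraries for each drug with its DMSO. Exon inclusion (denominator of at least 10 in every library and at least 10 inclusion and exclusion reads over the fit) and unspliced share (at least 20 reads in every library) were tested by quasi-binomial models with dispersion moderated by limma and not under 1. All tests were two-sided with Benjamini-Hochberg adjustment over all features of the comparison. Parsing used Python 3.11.15, pandas 2.3.3 and numpy 2.4.6. The scripts were tested on simulated data. Log2 fold changes are given with their SE. The set of members, its symbol rule, the gene lists and the tests were chosen with earlier results of these data known. Named members are those called, the 4 highest and 4 lowest of each comparison with a mean of at least 50 split reads, and a fixed list by role. Some member results are not reported here. Other scalings, filters, fits, a replicate block, log odds and each library left out were tried.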

Additional observations from a re-analysis of the deposited data

Results flagged for a closer look

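At DRB, 10 of the 82 members tested were called lower than DMSO at 10 μg/mL and higher than DMSO at 25 μg/mL. Both comparisons share their DMSO libraries. Of all genes 6.51% were lower at 10 μg/mL and 20.1% higher at 25 μg/mL, and the share with both calls was not counted. Of 83 cytosolic ribosomal protein genes, 9 were lower at 10 μg/mL and 76 higher at 25 μg/mL. As the 10 members were picked by their opposite calls, the difference between doses follows from the choice and is given as a description. As log2 fold change at 25 minus that at 10 μg/mL, it was 2.16 for NDUFB8, 2.07 for NDUFA4, 1.97 for ATP5MF, 1.96 for NDUFS5, 1.88 for NDUFA13, 1.86 for COX7B, 1.73 for NDUFB1, 1.72 for UQCRB, 1.44 for ATP5F1B and 1.25 for COX5A. The calls at 10 μg/mL were kept under 6 to 8 of 12 alternatives. The calls at 25 μg/mL were kept under 7 (COX5A) to 12. The 2 libraries at 25 μg/mL listed fewer introns and held more unspliced reads than the other 8, and the part of this in the differences was not tested.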

How the results depend on the processing

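Of the members, 62 were called at 25 μg/mL DRB and 48 to 67 under the 12 alternatives, which called 26.8% to 65.9% of all genes, and 62 between the DRB doses with 52 to 70 (27.7% to 70.8% of all genes). At 1 μg/mL α-amanitin and between the α-amanitin doses 0 were called under each. At 2 μg/mL α-amanitin, where 1 was called, the count was 4 when libraries were scaled by their totals (3 higher, 6.33% of all genes called), 0 with only the 2 groups compared (0.0%), 0 with all 10 libraries in 1 fit (8.0%), 10 with introns listed in all libraries (17.1%) and 0 to 0 without 1 library. At 10 μg/mL DRB, where 11 were called, it was 22 with the median of ratios (26.8% of members, 18.4% of all genes), 33 with the 2 groups only (40.2%, 22.3%), 24 with all 10 libraries (29.3%, 19.2%), 29 with introns listed in all libraries (36.7%, 33.3%) and 0 to 0 without 1 library. Of the members called there, 1 was higher with the median of ratios, 2 with the 2 groups only and 2 with introns listed in all libraries. Member exons called at 2 μg/mL α-amanitin were 5 by limma on log odds (4.0%, against 4.03% of all exons), and at 10 μg/mL DRB 17 by log odds (13.6%, 9.03%), 1 with a Ψ denominator of at least 30 (0.893%, 2.90%) and 1 with the 2 groups only (1.16%, 1.84%), against 0 as reported. At 25 μg/mL DRB the 56 exons became 0 to 11 without 1 library and 26 with both edges at listed splice sites, an alternative chosen after seeing the data. Member introns called there were 5 by log odds (5.38%, against 11.5% of all introns). The causes were not tested, except that fewer libraries leave fewer degrees of freedom.

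With a replicate block, 8 members were called higher and 3 lower at 2 μg/mL α-amanitin, 11 in all (13.4%, against 21.6% of all genes), and 7 were called, all lower, at 10 μg/mL DRB (8.54%, against 10.4%). The block left 0 exons of any gene called at 25 μg/mL DRB. The correlations between conditions of the differences of replicate 2 from 1, over 4945 genes, were 0.32 to 0.54 among DMSO and the α-amanitin doses and 0.05 to 0.22 among DMSO and the DRB doses. With 1 and 2 μg/mL α-amanitin, 10 μg/mL DRB had correlations of 0.3 and 0.3, and 25 μg/mL DRB 0.05 and 0.07. The labels do not say that a number marks a shared batch and there are only 2 numbers, so the correlations are a hint from the data and the fit without the block is the one reported.

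Genes with few reads could not be tested. Introns below the authors' filters are not listed, and the libraries at 25 μg/mL DRB listed the fewest, with 2899262 and 5175614 split reads against 4297810 and 4765690 in DMSO. The cause was not tested.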
